A study of Mus musculus with 9 samples.

Results

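Transcripts of *Chp2*, *Kcna2* and *Pmp22* were measured together with those of 5 relatives and partners (*Chp1*, *Kcna3*, *Kcnab2*, *Emp1* and *Emp3*) in fetal liver macrophages. The 8 genes were found by symbol among the 13708 genes of the table. *Chp2*, *Kcna2* and *Pmp22* were selected on their log2 fold change between the genotypes, as 3 of the 5 steepest falls among called genes that averaged 50 normalized counts or more and whose groups did not overlap, and this difference is therefore given as a description with no test. The relatives and partners entered by family or by known assembly, and their own differences were tested.

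Bulk RNA-seq was performed on macrophages (CD45+ F4/80hi CD11blow) sorted from the livers of E15.5 mouse embryos. There were 5 samples of the genotype Mrc1Cre Xpr1fl/fl and 4 control samples of the genotype Xpr1fl/fl. Both groups carried *loxP* sites around an exon of both *Xpr1* alleles, and *Xpr1* encodes a phosphate exporter. Embryos with Mrc1Cre also carried Cre in the *Mrc1* locus, so that the exon was deleted in cells that express *Mrc1* (CD206). These include liver sinusoidal endothelial cells as well as macrophages, and the controls carried no Cre. The sources used here do not say whether a bulk sample came from a single embryo or from a pool, and the p-values measure the spread between these samples only.

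Calcineurin B homologous proteins are small calcium-binding proteins that attach to plasma membrane sodium-hydrogen exchangers and are needed for their activity. *Chp1* is the broadly expressed form and *Chp2* the more restricted one. *Kcna2* and *Kcna3* encode the pore-forming subunits Kv1.2 and Kv1.3 of voltage-gated potassium channels, and *Kcnab2* encodes Kvβ2, a cytoplasmic subunit that binds such channels. *Pmp22* encodes a small tetraspan membrane protein best known from the myelin of Schwann cells, where its gene dosage matters for peripheral neuropathy. The epithelial membrane proteins encoded by *Emp1* and *Emp3* belong to the same family.

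The targeted gene followed the labels. *Xpr1* had 1073.7 to 1285.3 normalized counts in the 5 Mrc1Cre Xpr1fl/fl samples and 1780.9 to 2239.2 in the 4 controls (log2 fold change −0.77, standard error 0.08, adjusted p = 4.13e-05 from limma). Counts are per gene, so transcripts without the deleted exon are still counted. *Mrc1*, into which Cre was inserted, had 7574.1 ± 1265.6 normalized counts (SD, n = 5) against 24693.3 ± 2674.1 (n = 4). The deposited values are gene counts that the authors had divided by normalization factors, so they are called normalized counts here. Their totals, 26942921 to 28309443 per sample, are set by that normalization, and the sequencing depth is unknown. The column names carry dates of unstated meaning: control samples 1 to 3 and Mrc1Cre Xpr1fl/fl sample 5 share the earliest, control sample 4 has another, and Mrc1Cre Xpr1fl/fl samples 1 to 4 share the latest.

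*Chp2* (ENSMUSG00000030865, chr7:121807809-121823871 on the plus strand of GRCm39) was nearly lost. It had 17.9, 10.7, 18.6, 21.2 and 14.6 normalized counts in Mrc1Cre Xpr1fl/fl samples 1 to 5. Control samples 1 to 4 had 635.2, 444.7, 936.3 and 831.7 normalized counts. The lowest control was far above the highest Mrc1Cre Xpr1fl/fl sample. Mean levels were 16.6 ± 4.0 (SD, n = 5) and 712.0 ± 217.6 (n = 4), so that 2.33% of the control level remained, a 42.9-fold difference. The log2 fold change was −5.32 (standard error 0.25), the third lowest of 13594 genes.

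*Kcna2* (ENSMUSG00000040724, chr3:107008237-107022321, plus strand) was the most abundant of the steep genes before length was taken into account. Its normalized counts were 134.8, 63.0, 224.5, 270.3 and 324.8 in Mrc1Cre Xpr1fl/fl samples 1 to 5. In the controls they were 2380.5, 1878.4, 4246.1 and 4162.9. The groups did not overlap, and both varied more from sample to sample than those of the other steep genes. Means were 203.5 ± 105.0 (SD, n = 5) and 3167.0 ± 1215.9 (n = 4), which left 6.43% of the control level (15.6-fold lower). On the log2 scale *Kcna2* fell by 4.08 (standard error 0.43).

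*Pmp22* (ENSMUSG00000018217, chr11:63019718-63050600, plus strand) had 43.3, 34.2, 45.2, 42.8 and 41.1 normalized counts in Mrc1Cre Xpr1fl/fl samples 1 to 5. The controls had 582.0, 497.3, 850.1 and 905.4. The residual level of *Pmp22* was the tightest of the 3 steep genes, with a coefficient of variation of 10.3% against 24.3% for *Chp2* and 51.6% for *Kcna2*. Mean levels of 41.3 ± 4.3 (SD, n = 5) and 708.7 ± 199.5 (n = 4) correspond to 5.83% of control, a 17.2-fold difference. The log2 fold change was −4.03 (standard error 0.18). *Pmp22* was the last gene inside this group of 5, and *Pcolce2*, just outside it, had a log2 fold change of −3.91.

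The steep genes shared the order of their samples in part. Control sample 2 was the lowest control for all 3, followed by control sample 1, and control samples 3 and 4 were the highest. As a share of the control mean, these controls ran from 62.5% to 131.5% for *Chp2*, from 59.3% to 134.1% for *Kcna2* and from 70.2% to 127.8% for *Pmp22*. Mrc1Cre Xpr1fl/fl sample 2 was the lowest of its group for all 3, at 1.50%, 1.99% and 4.82% of the control mean. The highest sample of that group differed: it was sample 4 for *Chp2* (2.97%), sample 5 for *Kcna2* (10.3%) and sample 3 for *Pmp22* (6.38%).

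Dates and genotypes were largely confounded. Within the earliest date there was a single Mrc1Cre Xpr1fl/fl sample, so its values have no replicate. *Chp2* there had 14.6 normalized counts against a mean of 672.1 in 3 controls, a 45.9-fold difference. For *Kcna2* the values were 324.8 and 2835.0 (8.73-fold), and for *Pmp22* 41.1 and 643.1 (15.6-fold). The other dates held samples of 1 genotype each, so a fit with the date as a term rests on the same comparison of 1 Mrc1Cre Xpr1fl/fl sample with 3 controls and assumes that this sample varies like the rest. It gave log2 fold changes of −5.36 for *Chp2*, −3.03 for *Kcna2* and −3.90 for *Pmp22*. The difference in *Kcna2* was thus smaller within the date, while those of *Chp2* and *Pmp22* stayed close to the value over all 9 samples. Values from this fit are given below as the value in that sample, and a call in it is not read as support.

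**Figure D1:**
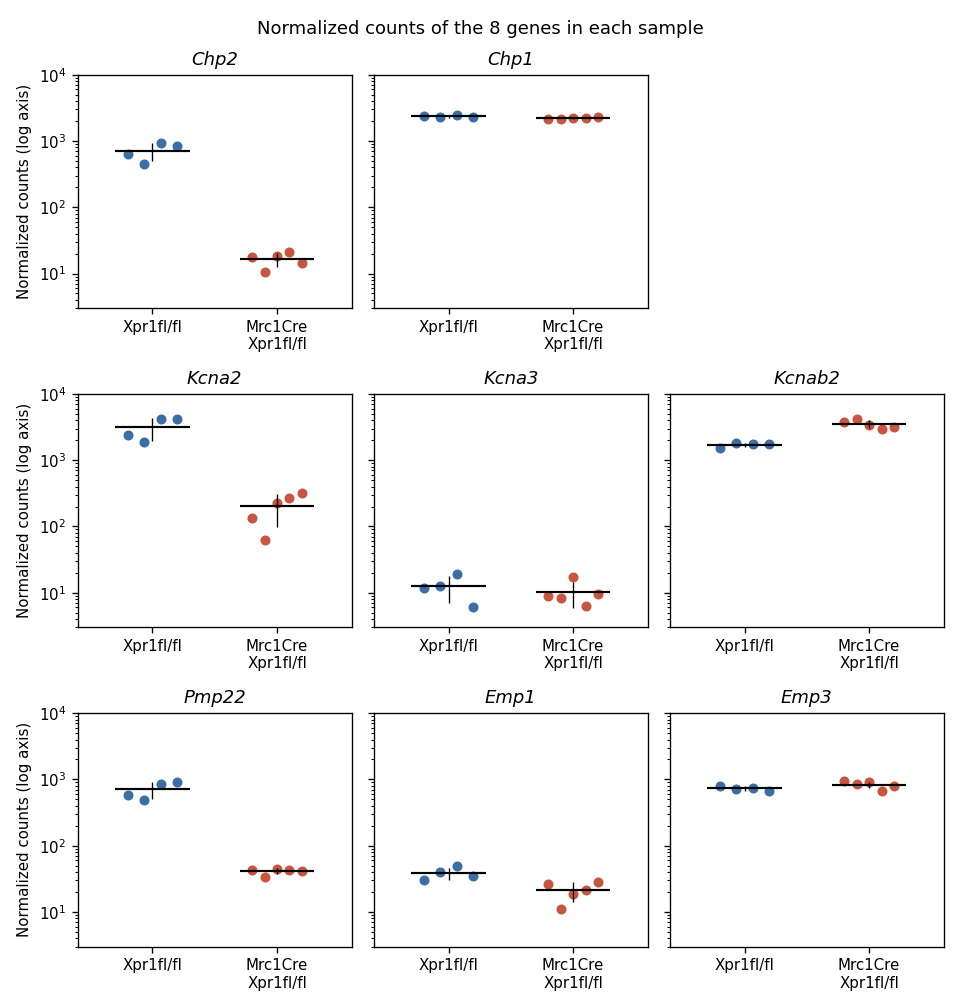
Normalized counts (log axis) of each of the 8 genes, a panel per gene and a row per family, in 4 Xpr1fl/fl (blue) and 5 Mrc1Cre Xpr1fl/fl (red) samples. Points are samples in the order of their numbers, horizontal lines are means and vertical lines are SD. *Chp2*, *Kcna2* and *Pmp22* (left) sit at 2.33%, 6.43% and 5.83% of control, while *Chp1*, *Kcna3* and *Emp3* overlap between the genotypes, *Emp1* is lower and *Kcnab2* is higher.

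The DNA just upstream of a RefSeq start of each steep gene is shown. Genes that fall together invite a comparison of their promoters, although nothing here measured those regions. Start sites were taken from RefSeq, whose promoter table names GRCm38.p6, and each window was matched as a single exact hit to GRCm39, which gives the coordinates below. Windows overlapped annotated exons in part, so the longest stretch free of exons is printed, on the plus strand, with each CG dinucleotide in capitals. For *Pmp22*, which has 4 RefSeq starts, the stretch belongs to the first. By the gene coordinates given above, the *Chp2* and *Kcna2* stretches lie inside the annotated gene, and the *Pmp22* stretch just before it. The *Chp2* stretch (chr7:121818469-121818630) ends 88 bases before the start, the *Kcna2* stretch (chr3:107008711-107008867) 15 bases before it and the *Pmp22* stretch (chr11:63019558-63019717) 90 bases before it.
Chp2: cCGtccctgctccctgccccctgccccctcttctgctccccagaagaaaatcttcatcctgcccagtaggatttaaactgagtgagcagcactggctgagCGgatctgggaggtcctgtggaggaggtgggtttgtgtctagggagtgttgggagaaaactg
Kcna2: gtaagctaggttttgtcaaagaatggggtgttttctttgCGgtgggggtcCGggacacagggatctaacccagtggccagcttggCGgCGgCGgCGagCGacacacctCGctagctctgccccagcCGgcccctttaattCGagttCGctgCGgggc
Pmp22: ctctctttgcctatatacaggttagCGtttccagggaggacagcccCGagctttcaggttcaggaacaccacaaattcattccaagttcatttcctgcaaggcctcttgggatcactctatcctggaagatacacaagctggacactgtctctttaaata

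The stretches were not alike in base composition. *Kcna2* held 12 CG dinucleotides in 157 bases, while *Chp2* and *Pmp22* each held 2, in 162 and 160 bases. Over the full 250 bases upstream of the start, *Kcna2* had a GC content of 62.4% and 18 CG dinucleotides, *Chp2* 59.6% and 7, and the first *Pmp22* start 48.8% and 3. The medians over 32851 RefSeq windows of that length were 52.4% and 6. The other 3 *Pmp22* starts had 14, 14 and 27 CG dinucleotides, so the gene has starts of both kinds.

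Few of the searched motifs were found. On both strands of the 250 bases, AGGAAG (the core bound by ETS factors) occurred 1 time at *Chp2* and in neither the *Kcna2* nor the first *Pmp22* window, and 29.5% of all windows held it. The AP-1 motif TGANTCA (in 6.7% of windows), the E-box CACGTG (6.0%), the TATA box TATAAA (12.4%), the C/EBP-ATF motif TGATGNAA (3.5%) and the interferon-stimulated response element (3.0%) were found in none of the 3. GGGCGG (32.7%) was absent there too and present at 2 of the other 3 *Pmp22* starts. No motif was shared by the 3 steep genes in these windows. A missing match says only that these letters are not in the window.

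The paralog of *Chp2* differed little between the genotypes. *Chp1* (ENSMUSG00000014077, chr2:119377651-119417522, plus strand) had 2166.0, 2161.3, 2224.6, 2207.2 and 2316.9 normalized counts in Mrc1Cre Xpr1fl/fl samples 1 to 5, and 2404.2, 2272.6, 2497.8 and 2290.8 in the controls. Sample 5 of the first group lay above 2 controls, so the groups overlapped. The log2 fold change was −0.09 (95% confidence interval −0.20 to 0.01, adjusted p = 0.136), and a fall of the size seen in *Chp2* lies outside that interval. *Chp1* was called lower under scaling to the 75th percentile (log2 fold change −0.17, adjusted p = 0.0180) and under quantile normalization (−0.18, adjusted p = 0.0176), and its adjusted p ranged from 0.0176 to 0.333 over the alternatives other than the date.

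*Kcna3*, the neighbour of *Kcna2* on chromosome 3 (ENSMUSG00000047959, chr3:106943485-106945386, plus strand), was at the low end of the table in both genotypes. Its normalized counts were 8.9, 8.3, 17.5, 6.4 and 9.7 in Mrc1Cre Xpr1fl/fl samples and 11.8, 12.8, 19.3 and 6.0 in controls. The groups overlapped throughout their range. The log2 fold change of −0.25 had a 95% confidence interval of −1.13 to 0.64 (adjusted p = 0.651), and it was 0.11 under quantile normalization (adjusted p = 0.852). A change of the size seen in *Kcna2* lies outside that interval, while differences inside the interval were not resolved at this level.

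*Kcnab2* (ENSMUSG00000028931, chr4:152474250-152562651, minus strand) moved in the opposite direction to *Kcna2*. It had 3832.1, 4195.1, 3412.7, 2997.3 and 3180.5 normalized counts in Mrc1Cre Xpr1fl/fl samples 1 to 5 and 1551.3, 1801.0, 1786.5 and 1763.2 in the controls. Every Mrc1Cre Xpr1fl/fl sample was above every control. *Kcnab2* rose 2.04-fold (log2 fold change 1.02, 95% confidence interval 0.81 to 1.23, adjusted p = 2.49e-05), and the fit with the date gave a log2 fold change of 0.90. Its adjusted p ranged from 1.84e-05 to 0.000382 over the other alternatives.

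*Emp1* (ENSMUSG00000030208, chr6:135339543-135360171, plus strand), a low-abundance relative of *Pmp22*, had 26.0, 11.2, 18.4, 21.4 and 28.4 normalized counts in Mrc1Cre Xpr1fl/fl samples and 30.8, 40.6, 48.6 and 34.5 in controls. The groups did not overlap, although sample 5 and control sample 1 were close. *Emp1* fell by 0.89 on the log2 scale (95% confidence interval −1.53 to −0.25, adjusted p = 0.0291). The call was lost under quantile normalization (log2 fold change −0.48, adjusted p = 0.177), and the fit with the date gave a log2 fold change of −0.45 (adjusted p = 0.618). The call was lost as well without Mrc1Cre Xpr1fl/fl sample 2 (adjusted p = 0.0508) or 3 (0.0559), or without control sample 2 (0.0655) or 3 (0.0886).

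*Emp3* (ENSMUSG00000040212, chr7:45567447-45571107, minus strand) was the abundant relative of *Pmp22*. It had 930.7, 842.8, 901.2, 677.5 and 798.4 normalized counts in Mrc1Cre Xpr1fl/fl samples and 798.9, 725.9, 737.6 and 670.6 in controls. The groups overlapped, and the log2 fold change was 0.17 (95% confidence interval −0.04 to 0.38, adjusted p = 0.164). Without Mrc1Cre Xpr1fl/fl sample 4, the lowest of its group, *Emp3* was called higher (log2 fold change 0.24, adjusted p = 0.0312), and its adjusted p ranged up to 0.455 over the alternatives other than the date.

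Of the 5 relatives and partners, 1 was thus called higher (*Kcnab2*), 1 lower (*Emp1*) and 3 were not called. Among all 13594 genes tested, 43.1% were called in either direction (21.5% higher and 21.6% lower), with a median log2 fold change of 0.00. In 2 of the 5 the groups were separated, every sample of 1 genotype lying above every sample of the other, which held for 34.1% of all genes tested. The counts among the relatives and partners are near these shares and say nothing particular about them. Under scaling to the 75th percentile, 1999 genes were called higher and 3707 lower, against 2926 and 2939, and *Kcnab2* kept its direction. The fit with the date called 8.78% of genes.

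Levels were set against each other per kilobase of the longest annotated transcript. In controls *Chp1* was highest, at 658 ± 29.2 normalized counts per kb (SD, n = 4), followed by *Emp3* (495 ± 35.5) and *Kcnab2* (343 ± 23.3). *Pmp22* (249 ± 70.1), *Kcna2* (243 ± 93.4) and *Chp2* (208 ± 63.6) came next, and *Emp1* (13.3 ± 2.67) and *Kcna3* (6.57 ± 2.87) were far below. The sample ranges of *Pmp22*, *Kcna2* and *Chp2* overlapped, as did those of *Kcnab2*, *Pmp22* and *Kcna2*, so their order is not resolved. Before the fall, the steep genes were therefore expressed at similar levels to each other, and *Pmp22* and *Kcna2* were well above their poorly expressed relatives *Emp1* and *Kcna3*.

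In Mrc1Cre Xpr1fl/fl samples the order was *Kcnab2* (699.7 ± 96.9 normalized counts per kb, SD, n = 5), *Chp1* (616 ± 17.5) and *Emp3* (560.5 ± 67.2), whose sample ranges overlapped. *Kcna2* (15.6 ± 8.06) and *Pmp22* (14.5 ± 1.50) followed, also with overlapping ranges, and then *Emp1* (7.24 ± 2.33), *Kcna3* (5.34 ± 2.25) and *Chp2* (4.85 ± 1.18), which overlapped in turn. *Chp2* had thus reached the level of *Kcna3*, while *Pmp22* stayed above *Emp1* in every sample. The lowest *Kcna2* sample, at 4.84, lay within the ranges of *Emp1*, *Kcna3* and *Chp2*, so the place of *Kcna2* above them is not resolved. Among 13698 genes with a length, *Chp2* moved from percentile 57.2 to 7.7, *Kcna2* from 61.1 to 17.6 and *Pmp22* from 61.7 to 16.9. The length chosen matters for genes with many transcripts: with all exons merged, *Kcnab2* had 175.0 and *Pmp22* 172.7 normalized counts per kb in controls, below *Kcna2* and *Chp2* at 234.7 and 192.0. With the shortest coding transcript, *Kcnab2* (4727.4) and *Chp1* (4568.2) changed places at the top.

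**Figure D2:**
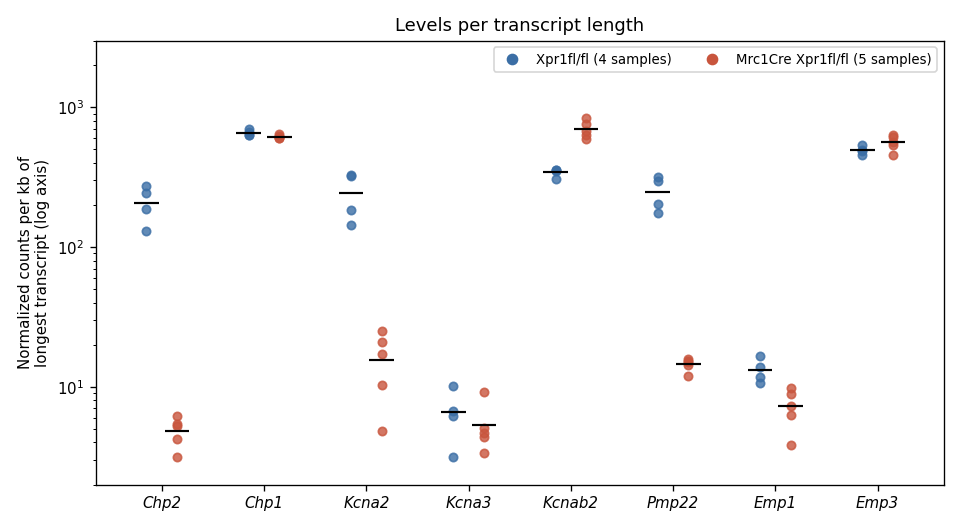
Normalized counts per kilobase of the longest annotated transcript (log axis) for the 8 genes, in 4 Xpr1fl/fl (blue) and 5 Mrc1Cre Xpr1fl/fl (red) samples. Points are samples and horizontal lines are means. *Chp2*, *Kcna2* and *Pmp22* lie between 130.0 and 326 in controls and between 3.13 and 25.0 in Mrc1Cre Xpr1fl/fl samples, next to *Emp1* and *Kcna3*.

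The balance within each family shifted with the steep gene. Per length, there were 0.206 to 0.394 *Chp2* for each *Chp1* in controls and 0.00521 to 0.0101 in Mrc1Cre Xpr1fl/fl samples. The ratio of *Kcna2* to *Kcnab2*, which encode subunits of the same kind of channel, was 0.403 to 0.919 in controls and 0.00581 to 0.0395 in Mrc1Cre Xpr1fl/fl samples, as the numerator fell and the denominator rose. The level of this ratio depends on the length used, since the control means of *Kcna2* and *Kcnab2* were 234.7 and 175.0 normalized counts per kb with all exons merged and 273.8 and 4727.4 with the shortest coding transcript, while its change between the genotypes does not. *Kcna2* exceeded *Kcna3* by 21.4 to 101 times in controls and by 1.11 to 6.19 times in Mrc1Cre Xpr1fl/fl samples. The ratio of *Pmp22* to *Emp3* went from 0.357 to 0.703 in controls to 0.0211 to 0.0329. *Pmp22* exceeded *Emp1* by 12.5 to 26.8 times in controls and by 1.48 to 3.12 times in Mrc1Cre Xpr1fl/fl samples. As the steep genes were chosen for their fall, these ratios are descriptions.

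The nearest measured genes on the chromosome did not share the fall. *Plk1*, a mitotic kinase gene 38.7 kb from *Chp2*, had 2963.0 ± 111.9 normalized counts (SD, n = 5) in Mrc1Cre Xpr1fl/fl samples and 2676.4 ± 246.2 (n = 4) in controls (log2 fold change 0.15, adjusted p = 0.0768). *Prkcb*, which encodes protein kinase C beta and lies 64.1 kb away on the other side, was higher (2350.9 ± 166.1 against 1858.2 ± 105.3, log2 fold change 0.34, adjusted p = 0.00147). Beside *Kcna2* lay *Kcna3* at 62.8 kb, described above, and *Lamtor5*, of the lysosomal Ragulator complex, at 163.8 kb (log2 fold change 0.05, adjusted p = 0.484). *Tvp23b*, 212.1 kb from *Pmp22*, had 678.7 ± 47.2 and 679.1 ± 61.4 normalized counts (log2 fold change 0.00, adjusted p = 0.996). The processed pseudogene *Gm12286*, 152.5 kb from *Pmp22* on the other side, was higher by 0.50 on the log2 scale (adjusted p = 0.0372), with overlap between the groups. Reads of a processed pseudogene can be shared with its parent gene, so that value is uncertain.

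Of the sodium-hydrogen exchangers, the membrane proteins to which CHP1 and CHP2 attach, 6 of 12 listed genes were measured. Among them 3 rose, 1 fell and 2 were not called, with a median log2 fold change of 0.24. Of all genes tested, 21.5% were called higher and 21.6% lower, and the counts in this and the following lists stand beside those shares. *Slc9a9*, the most abundant of them and an endosomal exchanger, was lower (2572.2 ± 267.4 against 3499.4 ± 499.7, log2 fold change −0.44, adjusted p = 0.00541). The fit with the date called none of the 6 and gave −0.51 for *Slc9a9*.

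Relatives and partners of the calcineurin B homologous proteins changed by little. Of 10 tested, 1 rose, 3 fell and 6 were not called, with a median log2 fold change of −0.12. Under scaling to the 75th percentile 6 of them were called lower. *Ppp3ca*, a catalytic subunit of calcineurin, fell from 3131.5 ± 139.4 to 2480.4 ± 60.9 normalized counts (log2 fold change −0.34, adjusted p = 0.000248). *Rcan1*, a regulator of calcineurin, fell by 0.33 on the log2 scale (adjusted p = 0.00685). The glycerol-3-phosphate acyltransferases split: *Gpat3* was lower (log2 fold change −0.35, adjusted p = 0.0229) and *Gpat4*, whose protein binds CHP1, was higher (0.35, adjusted p = 0.000972). *Stk17b*, a kinase gene and the most abundant of the list, had a log2 fold change of 0.02 (adjusted p = 0.752). In the fit with the date 1 of the 10 was called higher and 1 lower, and the log2 fold changes were −0.40 for *Ppp3ca*, −0.19 for *Rcan1*, −0.56 for *Gpat3* and 0.37 for *Gpat4*.

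Other potassium channel genes fell far less than *Kcna2*, which was chosen for the size of its fall. Of 90 listed, 20 were measured and 18 tested: 3 rose, 7 fell and 8 were not called, with a median log2 fold change of −0.26. The rises were those of *Kcnj2* (log2 fold change 0.58), *Kcnd1* (0.62) and *Kcnab1* (15.3 normalized counts on average against 7.5). *Kcnab1* was tested only because of its level in Mrc1Cre Xpr1fl/fl samples, and a filter of 50 normalized counts left 2 rises and 6 falls. *Kcnn4*, the calcium-activated channel KCa3.1, had 195.1 to 386.1 normalized counts in Mrc1Cre Xpr1fl/fl samples and 709.6 to 1015.1 in controls (log2 fold change −1.70, adjusted p = 4.11e-05). Its highest and lowest Mrc1Cre Xpr1fl/fl values were those of the samples with the most and the fewest erythroid transcripts of that group. The part of erythroid cells in the fall of *Kcnn4* was not tested. The inward rectifiers *Kcnj10* and *Kcnj16*, whose proteins can form a channel together, fell by 1.15 and 1.48 on the log2 scale (adjusted p = 0.000487 and 0.000268). *Kcnj9*, another inward rectifier, fell by 1.31 (adjusted p = 0.00617). In each of these 4 genes, which were named for the size of their change, the genotypes did not overlap. That held for 34.1% of all genes tested. The fit with the date gave smaller log2 fold changes, −1.09 for *Kcnn4*, −0.73 for *Kcnj10*, −0.99 for *Kcnj16* and −0.35 for *Kcnj9*, and called 1 channel gene lower and 1 higher. The most abundant channel gene, *Kcnk6* of the pore-domain family, had 5561.7 ± 243.7 and 5877.2 ± 238.2 normalized counts (log2 fold change −0.08, adjusted p = 0.212).

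Among 7 genes whose products assemble with or scaffold Kv1 channels, 1 rose and 3 fell. The list includes *Adam23*, a gene of low level (3.7 normalized counts on average against 21.9), which was tested only because of its level in the controls. A filter of 50 normalized counts left 1 fall. *Sqstm1*, the autophagy receptor p62, was the most abundant and rose by a log2 fold change of 0.52 (adjusted p = 0.000792). *Adam22*, which encodes a partner of Kv1 channels in axons, fell by 0.82 on the log2 scale (adjusted p = 0.0400) with overlapping samples. The fit with the date called none of the 7, at log2 fold changes of 0.53 for *Sqstm1* and −1.49 for *Adam22*.

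Relatives of *Pmp22* in the wider claudin and MAL families were mostly scarce. All 11 measured of 35 listed were tested: 1 rose, 7 fell and 3 were not called. Among the falls, *Mal2* (3.7 to 6.4 normalized counts in Mrc1Cre Xpr1fl/fl samples), *Emp2* and *Tmem47* were tested only because of their level in the controls, and a filter of 50 normalized counts left 2 falls. *Cldn13*, a claudin gene of mouse hematopoietic tissue, had 123.5 to 403.9 normalized counts in Mrc1Cre Xpr1fl/fl samples and 624.6 to 934.9 in controls (log2 fold change −1.90, adjusted p = 0.000293). Its highest Mrc1Cre Xpr1fl/fl value was that of sample 5, which also had the most erythroid transcripts of its group, and the part of erythroid cells in this result was not tested. *Cldn1* fell by 1.15 on the log2 scale (adjusted p = 0.00252). *Cldnd1*, the most abundant, rose by 0.37 (adjusted p = 0.00162). The fit with the date called 1 of the 11 lower and 0 higher, and it gave −0.89 for *Cldn13*, −0.77 for *Cldn1* and 0.26 for *Cldnd1*.

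Of 7 known partners of PMP22 and of the epithelial membrane proteins, *Itgb4* was too low to test (6.5 and 11.3 normalized counts on average). Among the other 6, 2 rose, 1 fell and 3 were not called, with a median log2 fold change of 0.19. *Canx*, which encodes the chaperone calnexin, rose from 23250.9 ± 1974.5 to 30958.0 ± 2030.3 normalized counts (log2 fold change 0.41, adjusted p = 0.000868). *Itgb1* (integrin beta 1) rose by a log2 fold change of 0.41 (adjusted p = 0.000238). *Itga6* was lower by 0.33 on the log2 scale (adjusted p = 0.0470), with overlapping samples, and it lost its call in 6 of the alternatives. The fit with the date gave 0.24 for *Canx*, 0.28 for *Itgb1* and −0.82 for *Itga6*, and called only the last.

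**Figure D3:**
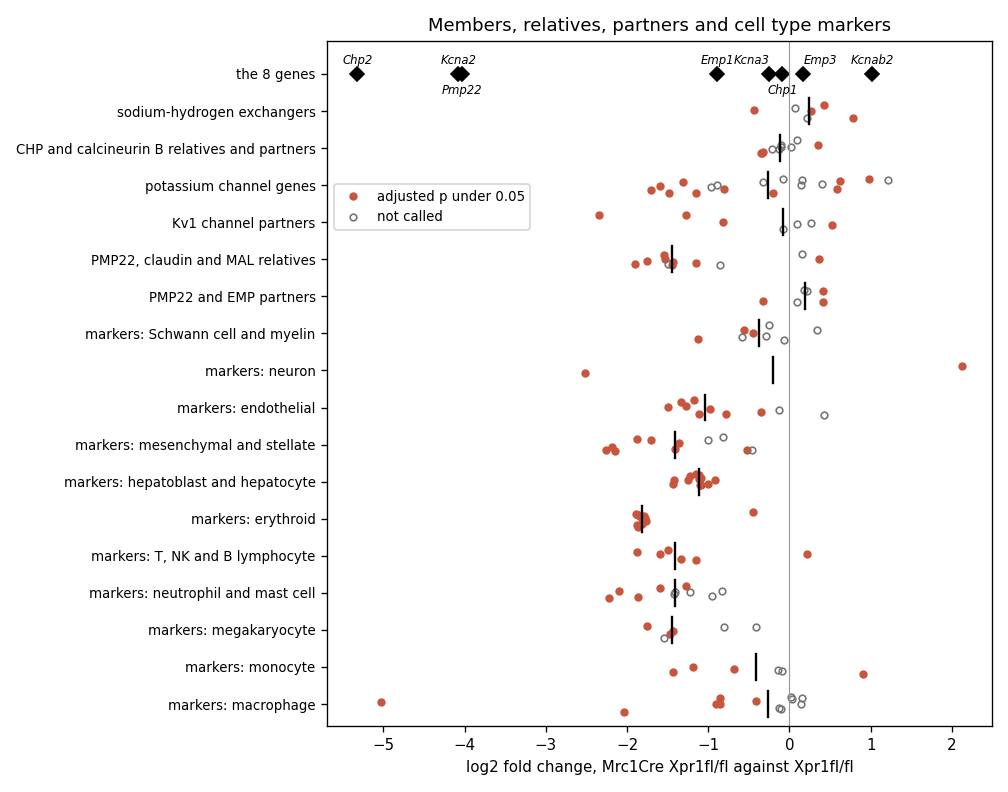
Log2 fold change of Mrc1Cre Xpr1fl/fl against Xpr1fl/fl for the 8 genes (black diamonds, top row) and for the tested genes of each list, with filled red points for an adjusted p under 0.05, open points for genes not called, and a vertical bar at the median of each list (vertical scatter within a row only separates the points). *Chp2*, *Kcna2* and *Pmp22*, chosen for the size of their fall, lie at −5.32, −4.08 and −4.03, below every gene of their family lists. Of the marker genes 1 macrophage gene, *Vsig4*, lies as low, at −5.03.

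The profiles most like those of the steep genes were found by the smallest root mean square difference of log2 levels over the 9 samples, each relative to the gene's control mean, among 11400 genes. Nearest to *Chp2* was *Vsig4*, a complement receptor of tissue macrophages (0.511), followed by *Pmp22* (0.976) and *Kcna2* (1.06). *Kcna2* was nearest to *Pcolce2* (0.422), *Sult1a1* (0.472) and *Eva1a* (0.481). Nearest to *Pmp22* were *Vstm4* (0.499), *Eva1a* (0.524) and *Kcna2* (0.568). The genes named here all fell steeply: *Vsig4* had 13.3 normalized counts on average in Mrc1Cre Xpr1fl/fl samples and 485.5 in controls, *Pcolce2* 27.8 and 410.8, *Sult1a1* 48.1 and 542.1, *Eva1a* 9.7 and 118.3, and *Vstm4* 21.9 and 331.4. A measure of this kind is set mainly by the size of the fall, and the likeness is a description.

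A bulk sample cannot tell fewer cells of a type from less RNA per cell, so markers of the cells that a sort could hold were set beside the steep genes. General macrophage genes were not all alike: *Adgre1* (F4/80) had a log2 fold change of 0.02 and *Csf1r* of 0.14, while *C1qa* fell by 0.86. Of 12 macrophage markers, 6 fell and 0 rose (median −0.27). The falls included *Vsig4* (−5.03), *Clec4f* (−2.04), *Timd4* (−0.85) and *Cd5l*, the most abundant (−0.90). The summed level of the list was 310420 to 360022 in Mrc1Cre Xpr1fl/fl samples and 356316 to 453641 in controls. Of 6 monocyte markers, 1 rose (*Plac8*, log2 fold change 0.91) and 3 fell (median −0.41). Over all genes tested, 21.5% were called higher and 21.6% lower.

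Transcripts of other cell types were lower in Mrc1Cre Xpr1fl/fl samples as well. They fell by less than the steep genes, but those were chosen for the size of their fall, so this comparison is a description. All 11 erythroid markers fell (median −1.82, summed level 103641 to 313866 against 409280 to 648268, led by *Hba-a1*), as did all 12 hepatocyte markers (median −1.11, led by *Alb*). Of 11 mesenchymal markers 8 fell (median −1.41, led by *Col3a1*), with a summed level of 713.5 to 1254.8 against 2302.2 to 6243.7. Endothelial markers fell in 8 of 10 cases (median −1.04, led by *Stab2*), with a summed level of 6173.3 to 8382.9 against 10047.9 to 13745.9. Among the mesenchymal and endothelial falls, *Lrat* and *Emcn* were tested only because of their level in the controls. Of the remaining lists, 3 of 6 megakaryocyte markers (median −1.45, led by *Pf4*) and 5 of 10 neutrophil and mast cell markers (median −1.42) fell. *S100a9*, the most abundant of the latter, was not among those called (adjusted p = 0.169). Among 6 lymphocyte markers 5 fell and 1, *Cd79b*, rose (median −1.42). Like the erythroid sum, *Kcna2* was highest in sample 5 (324.8 normalized counts) and lowest in sample 2 (63.0) of the Mrc1Cre Xpr1fl/fl group. *Chp2* and *Pmp22* were also lowest in sample 2 but highest in samples 4 and 3. The part of these other cell types in the fall of *Chp2*, *Kcna2* and *Pmp22* was not tested.

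Markers of Schwann cells and neurons, in which *Pmp22* and *Kcna2* are best known, were set beside them as well. Of 11 Schwann cell and myelin markers 8 were measured, 3 fell and 0 rose (median −0.37), with a summed level of 1151.1 to 1541.6 against 1652.8 to 1886.4. *Egr2*, the most abundant, is also expressed by macrophages. Of 8 neuronal markers 2 were measured: *Rbfox3* fell (16.3 ± 8.5 against 88.2 ± 7.6) and *Elavl4* rose (40.5 ± 5.0 against 9.4 ± 5.3). *Elavl4* was tested only because of its level in Mrc1Cre Xpr1fl/fl samples.

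**Figure D4:**
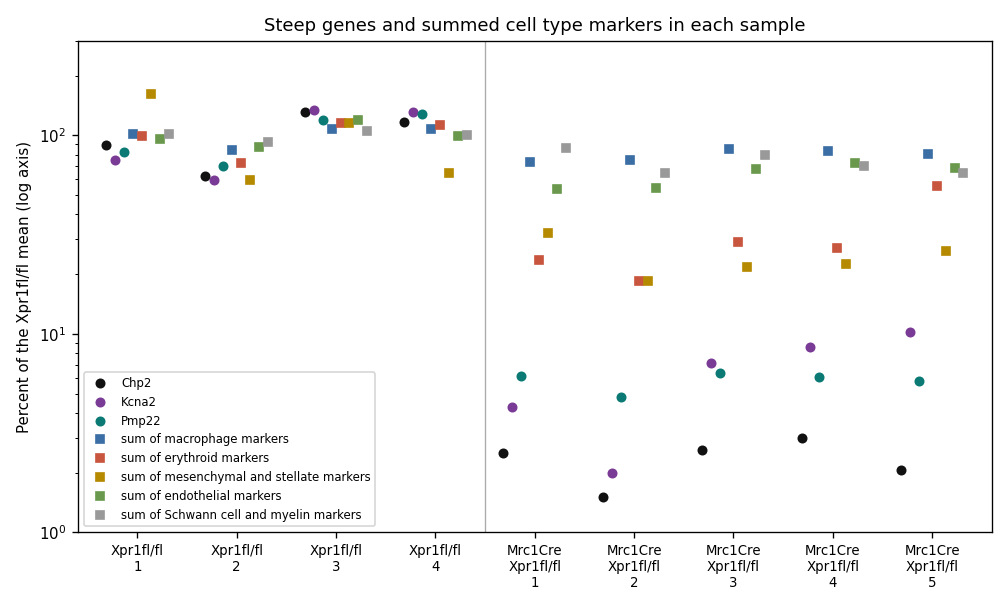
Level in each sample as a percent of the Xpr1fl/fl mean (log axis), for *Chp2*, *Kcna2* and *Pmp22* (circles) and for the summed normalized counts of 5 marker lists (squares), with points shifted sideways within a sample to separate them. In Mrc1Cre Xpr1fl/fl samples the steep genes, which were chosen for the size of their fall, lie at 1.50% to 10.3%. Each of the 5 marker sums plotted lies above that. The lowest are the erythroid and mesenchymal sums of sample 2, at 18.4% each.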

How the data were processed

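RNA of sorted fetal liver macrophages (5 Mrc1Cre Xpr1fl/fl and 4 Xpr1fl/fl samples) was sequenced as stranded mRNA libraries from 45 ng of total RNA. The authors assigned reads to GRCm39 transcripts with salmon, summed them per gene with tximport and normalized gene counts with DESeq2. The deposited signal is this normalized count per gene, 13708 genes with a mean of at least 5.79. Versions and the filter are not given in the sources used here. The labels' processing notes also name FastQC.

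Symbols, coordinates and transcript lengths came from GENCODE release 39 for mouse (GRCm39), and 13698 genes had a symbol. Promoter windows came from RefSeq. A gene entered the test with 10 or more normalized counts in 4 or more samples, which 13594 genes had. The test was limma 3.58.1 (R 4.3.3, eBayes with trend) on log2(normalized count + 1), two-sided, with Benjamini-Hochberg adjustment over all genes tested and a threshold of 0.05. Fold changes on this scale understate the change of low genes. Whole reads could not be recovered, so no count test was run here. The fit was tested on simulated data.

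The genes, lists and motifs were chosen with earlier results of these data known. Lists name genes past the threshold with the largest change and a mean of at least 50 normalized counts, and the most abundant gene. Some genes that this rule names are not reported here. *Adgre1*, *Csf1r*, *C1qa*, *Clec4f*, *Timd4*, *Elavl4*, *Kcnj2*, *Kcnd1*, *Kcnab1*, *Lrat* and *Emcn* were named after their values were seen. Alternatives were other pseudocounts, filters, scalings and fits, the date or the replicate number as a term, and leaving out each sample. Figures were drawn with matplotlib 3.10.9.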

Additional observations from a re-analysis of the deposited data

Results flagged for a closer look

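*Kcnab2* in Xpr1fl/fl sample 1 stood apart from the other controls, with 1551.3 normalized counts where the other 3 had 1763.2 to 1801. The gap to the nearest control exceeded Dixon's 95% critical value for 4 samples. It was the 1 group with such a sample among 20 groups of samples checked, and chance alone would flag about 1 in 20. The sample was farther from the Mrc1Cre Xpr1fl/fl samples than the other controls, and the log2 fold change of *Kcnab2* was 0.96 to 1.08 over the fits that left out 1 sample each.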

How the results depend on the processing

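The log2 fold changes of *Kcnab2* and *Pmp22* held their direction under the 19 alternatives and stayed within 1 SD or on the same side of the threshold. With the date as a term, which rests on 1 Mrc1Cre Xpr1fl/fl sample, 1194 genes were called (577 higher and 617 lower), the log2 fold change of *Kcna2* was −3.03 and that of *Emp1* −0.45. A pseudocount of 10 gave −4.72 for *Chp2*, as a larger pseudocount shrinks changes of low genes. *Chp1* was called lower under scaling to the 75th percentile (−0.17) and quantile normalization (−0.18), *Emp1* was not called under the latter (−0.48), and *Kcna3* turned to 0.11. For *Chp1*, *Emp1* and *Kcna3* the cause was not tested. Leaving out each sample in turn gave −5.52 to −5.17 for *Chp2*, −4.30 to −3.71 for *Kcna2*, −4.18 to −3.90 for *Pmp22*, −0.11 to −0.07 for *Chp1*, −1.01 to −0.69 for *Emp1*, 0.13 to 0.24 for *Emp3* and 4815 to 6081 genes called. *Kcna3* did not pass the filter in 4 of these fits (−0.53 to −0.12 in the other 5), and neither it nor *Emp1* passed a filter of 50 normalized counts. The depth is unknown, which limits statements on *Kcna3*, *Emp1* and the residual level of *Chp2*.

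Replicate numbers are shared between the groups, but samples with the same number did not deviate together (correlations −0.033, 0.147, −0.011 and −0.031). With the replicate number as a block, where sample 5 has no partner, 6226 genes were called (3146 higher and 3080 lower), and log2 fold changes were −5.28 for *Chp2*, −4.30 for *Kcna2*, −4.03 for *Pmp22*, −0.11 for *Chp1*, −0.25 for *Kcna3*, 1.06 for *Kcnab2*, −1.01 for *Emp1* and 0.18 for *Emp3*. The block changed no call among the 5 relatives and partners.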
